A study of Sus scrofa with 18 samples.

Results

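Genes of mitochondrial fatty acid oxidation and of the tricarboxylic acid cycle were followed in pig right ventricle (free wall) before and after that chamber had failed. The members were 35 genes given by name, 20 of fatty acid oxidation and 15 of the cycle with its entry enzyme pyruvate dehydrogenase. A gene counted as measured where the table that pairs probe sets with genes gives it as the single symbol of a probe set, and the probe set with the highest mean over the 18 arrays stood for it. This gave 34 measured members, 19 of fatty acid oxidation and 15 of the cycle, among 6765 genes in all. CD36, the fatty acid transporter of the cell surface, has no probe set under its single symbol in that table and was not analysed here. The rule used no measured change, and the members were tested within the fit of all 23935 probe sets.

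The animals were 9 crossbred pigs (Hampshire, Yorkshire and Swedish Landrace), and each gave a baseline and a failure sample, so there were 9 arrays per group. Failure was brought about by tying off coronary arteries on the right ventricular free wall. For pigs 6, 8, 9, 11, 12 and 13 the failure sample is labelled with 120 min of ischemia. For pigs 5, 10 and 14 it is labelled as heart failure, defined by a right atrial pressure above 20 mmHg, and these animals weighed 30 to 40 kg. Ages and sexes were not given in the sources used here. Baseline always came before ligation and the set holds no time-matched pig without ligation, so failure and time under the procedure cannot be told apart.

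Long-chain fatty acids are the main fuel of the adult heart. They are bound and activated in the cytosol, carried into mitochondria as carnitine esters, and shortened there in repeated rounds of oxidation, hydration, oxidation and cleavage that release acetyl-CoA. The tricarboxylic acid cycle oxidises that acetyl-CoA, together with the acetyl-CoA that pyruvate dehydrogenase makes from pyruvate, and hands the electrons to the respiratory chain.

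The values are log2 intensities, and a difference of 1 is a change of 2-fold. The tissue label fitted the markers: 13 of 13 measured cardiomyocyte genes lay above the median of all probe sets, against 0 of 6 skeletal muscle genes. The arrays of pig 5 stood apart. Pig 5 had the lowest level of 28 of the 34 members at baseline and of 28 in failure. Its difference between the 3' and 5' control probe sets of GAPDH, which grows as RNA breaks down, was 2.61 at baseline and 3.55 in failure, against 0.61 to 1.49 and 0.31 to 2.17 in the other 8 pigs. For failure against baseline, the counts of changes below 0 and the pathway means are therefore given with and without pig 5. The single changes that pig 5 moved most are given likewise. The members were mostly bright, with 31 of 34 above the median of all probe sets. The rule took the brightest probe set of each gene, which favours a high count. The share over the 6765 genes, chosen in the same way, is not given here. The dim ones were CPT2 (mean 4.63), UCP3 (4.56) and PPARA (4.07). Intensities of different probe sets depend on the probes, so levels are compared within a gene only.

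The comparison of failure with baseline asks whether the genes of fuel oxidation changed when the ventricle failed. No member of either pathway passed the threshold of an adjusted p of 0.05 in limma: 0 of 19 in fatty acid oxidation and 0 of 15 in the cycle, with 0 of 34 also at an unadjusted p under 0.05. Over all probe sets, 0.0668% passed (0.046% lower and 0.0209% higher) and 6.14% had an unadjusted p under 0.05. The changes were small and their bounds were narrow. The largest was -0.21 (SE 0.11), for ETFA, and 32 of 34 intervals of 95% lay between levels 20% lower and 25% higher than baseline, as did 87.9% of those over all probe sets. The other 2, of ETFA and PDHB, reached a change of -0.44 and of -0.36 and lay within 1.5-fold. The baseline and failure levels overlapped for 34 of 34 members. That count leaves out the pairing by pig, and the share over all probe sets is not given here, so it says little about the members. The estimates lay below 0 for 16 of 19 genes of fatty acid oxidation (median -0.03) and for 14 of 15 of the cycle (median -0.06), against a median of -0.01 over the 6765 genes, 53.6% of which lay below 0. Centring the arrays on cardiomyocyte markers adds the same amount to every change, so that the median of all probe sets became 0.06. On that scale 16 of 34 members lay below 0, with medians of 0.03 for fatty acid oxidation and -0.000939 for the cycle, still below that of all probe sets. Without pig 5, 25 of 34 members lay below 0 and 0 passed. ACADS, ACADVL, ETFDH, IDH2, SUCLG1 and MDH2 then lay above 0, at 0.04 or less, and ACADM lay at -0.00206. Among the larger estimates, PDHB became -0.07, DLST -0.08, HADH -0.07, SUCLA2 -0.06 and HADHB -0.04 without pig 5. In a sample of whole tissue, fewer cells of a type and less RNA per cell cannot be told apart. Of the 13 cardiomyocyte markers 11 lay below 0 as well (median -0.04), and their summed intensity ran from 189250 to 214074 at baseline and from 167023 to 219318 in failure. The red blood cell markers had changes below 0 in 4 of 4 measured genes (median -1.01), and AHSP, ALAS2 and HBM among them passed the threshold. Their summed intensity ran from 704 to 2152 at baseline and from 390.2 to 917 in failure. The part of either cell type in the members' values was not tested.

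**Figure D1:**
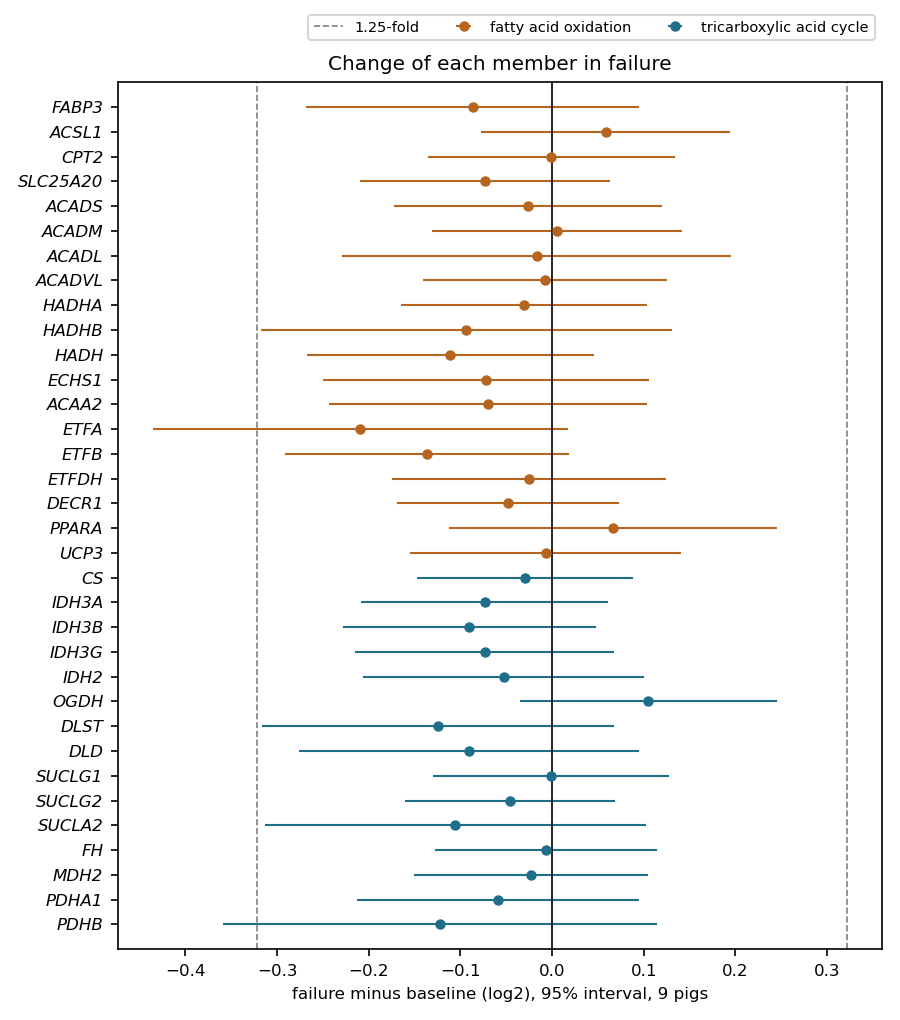
Change of each of the 34 members in failure (x axis, failure minus baseline in log2 units) with its 95% interval over 9 pigs, fatty acid oxidation in brown and the cycle in blue. All intervals include 0, and those of ETFA and PDHB alone cross a dashed line, drawn at 20% below and 25% above baseline.

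The proteins that bind and activate fatty acids come first in the route. FABP3, the fatty acid binding protein of heart muscle, lay at 12.89, 13.22 and 13.48 at baseline (lowest, median and highest pig) and at 12.23, 13.28 and 13.44 in failure. The lowest failure value was that of pig 5, in which the gene was 0.65 lower than before ligation. The medians of the 2 groups were close. Within pigs the change was -0.09 (95% interval -0.27 to 0.10, adjusted p = 0.934 in limma), lower in 5 of 9, and -0.02 without pig 5. ACSL1, which joins long-chain fatty acids to coenzyme A, had a change of 0.06 (95% interval -0.08 to 0.19) and was higher in 5 of 9 pigs. ACSL1 is also active in fat cells. The adipocyte markers had changes above 0 in 5 of 5 measured genes (median 0.11) with 0 past the threshold. Only 3 of them lay above the median of all probe sets (5.63). ADIPOQ (mean 3.54) and LIPE lay below it, with changes of 0.03 (SE 0.07) and 0.11 (SE 0.11), so their direction says little. The summed intensity of the 5 genes ran from 2179 to 3758 at baseline and from 2434 to 3763 in failure. FABP4 (mean 11.03) and CFD (9.69) were the brightest of them and weigh most in that sum. The part of fat cells in the ACSL1 value was not tested.

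In the carnitine shuttle, SLC25A20, the translocase that exchanges acylcarnitine for carnitine across the inner membrane, lay between 7.96 and 8.95 at baseline (median 8.74) and between 7.93 and 9.21 in failure (median 8.44). The groups overlapped almost wholly. Its change was -0.07 (SE 0.06, adjusted p = 0.918), lower in 6 of 9 pigs. CPT2, which turns acylcarnitine back into acyl-CoA inside the mitochondrion, had a change of -0.000848 with an interval of -0.14 to 0.13. This gene was dim (mean 4.63), so a change of the transcript could be understated.

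The acyl-CoA dehydrogenases carry out the opening oxidation of each round and differ in the chain length they prefer. All 4 had mean changes near 0: ACADVL (very long chains) at -0.01, ACADL (long chains) at -0.02, ACADM (medium chains) at 0.01 and ACADS (short chains) at -0.03. They differed in how far single pigs departed from that mean. ACADL ran from -0.64 in pig 13 to 0.46 in pig 9 (SD 0.348, n = 9). ACADVL, the least variable of them, ran from -0.29 in pig 5 to 0.29 in pig 6 (SD 0.163, n = 9).

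The later steps are shared between the trifunctional protein (HADHA and HADHB), separate enzymes (ECHS1, HADH and the thiolase ACAA2) and DECR1, which handles unsaturated chains. All 6 estimates lay between -0.11 and -0.03. HADH, a short-chain 3-hydroxyacyl-CoA dehydrogenase, lay at 11.41, 12.12 and 12.42 at baseline (lowest, median and highest) and at 10.94, 12.01 and 12.21 in failure. Its change was -0.11 (SE 0.07, adjusted p = 0.888), and it was higher in 5 of 9 pigs. The 4 pigs in which it was lower included pig 5 (-0.47) and pig 12 (-0.41). HADHB, the thiolase subunit of the trifunctional protein, lay at 10.88, 11.69 and 12.42 at baseline and at 10.40, 11.78 and 12.63 in failure. The pigs moved in both directions, from -0.59 in pig 12, -0.53 in pig 13 and -0.49 in pig 5 to 0.52 in pig 9. HADHA, the partner subunit, kept closer to 0 in the same animals than the HADHB probe set used. It had changes of -0.11, -0.04 and -0.25 in pigs 12, 13 and 5 and -0.29 in pig 9. This contrast depended on the probe set. Another HADHB probe set (mean 11.43) had changes of -0.25, -0.10 and -0.24 in pigs 12, 13 and 5 and 0.24 in pig 9. The dimmest HADHB probe set (mean 9.86) lay further from 0, at -0.96, -1.32 and -0.68 in pigs 12, 13 and 5 and 0.61 in pig 9. The mean changes were -0.09 (SE 0.10) for HADHB at the probe set used and -0.03 (SE 0.06) for HADHA, neither past the threshold.

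Electrons from the dehydrogenases pass through the electron transfer flavoprotein (ETFA and ETFB) and its membrane-bound oxidoreductase (ETFDH) to ubiquinone. ETFA lay at 10.02, 11.33 and 11.68 at baseline and at 9.14, 11.26 and 11.57 in failure. The lowest value of each group was again that of pig 5. The ETFA change was -0.88 in pig 5, -0.65 in pig 13 and -0.43 in pig 12, and lay above 0 in 4 pigs, at 0.18 or less. Its mean of -0.21 (adjusted p = 0.831) became -0.13 without pig 5 (adjusted p = 0.948). ETFB, the other subunit, lay at 9.83, 10.22 and 10.40 at baseline and at 9.23, 10.05 and 10.42 in failure. It was lower in 7 of 9 pigs, with a mean change of -0.14 (SE 0.07, adjusted p = 0.850), and -0.08 without pig 5. ETFDH had a change of -0.03 (SE 0.07).

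PPARA, the nuclear receptor that drives many genes of fatty acid oxidation, had a change of 0.07 (95% interval -0.11 to 0.25). UCP3, a mitochondrial carrier that responds to fatty acid supply, had one of -0.01 (-0.15 to 0.14). Both were dim, near the 25th percentile of the arrays (3.91 to 4.07) in the case of PPARA, so a change of the transcript could be understated.

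Pyruvate enters the cycle through pyruvate dehydrogenase, whose catalytic E1 part is built from PDHA1 and PDHB and whose E3 part is DLD. PDHB lay at 10.08, 11.27 and 11.67 at baseline and at 9.56, 11.17 and 11.54 in failure. It had the widest spread of change of any member (SD 0.400, n = 9), from -0.72 in pig 13 to 0.37 in pig 14. It was higher in 4 pigs and lower in 5, with a mean of -0.12 (SE 0.11, adjusted p = 0.922). PDHA1, the alpha subunit of the same enzyme, had a change of -0.06 (SE 0.07) and DLD one of -0.09 (SE 0.09).

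CS, citrate synthase, opens the cycle and is widely used as a marker of mitochondrial content. At the probe set used it was among the steadiest members, at 12.15, 12.43 and 12.68 at baseline and 11.95, 12.42 and 12.58 in failure. Its change was -0.03 (95% interval -0.15 to 0.09, SD 0.116, n = 9). The other CS probe set (mean 10.91) was less steady, from -0.47 in pig 5 to 0.48 in pig 14 (SD 0.298, n = 9), with a mean of 0.02. The 3 subunits of the NAD-dependent isocitrate dehydrogenase had similar small estimates: -0.07 for IDH3A, -0.09 for IDH3B and -0.07 for IDH3G. IDH3A lay at 8.86, 9.94 and 10.24 at baseline and at 8.65, 9.90 and 10.17 in failure, and was lower in 5 of 9 pigs (adjusted p = 0.916). IDH3B lay at 8.27, 8.53 and 8.79 at baseline and at 8.16, 8.51 and 8.68 in failure, and was lower in 6 of 9 (adjusted p = 0.898). IDH2, the NADP-dependent enzyme of the mitochondrion, had a change of -0.05 (SE 0.07).

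The oxoglutarate dehydrogenase complex held the member with the most uniform direction. OGDH, its E1 subunit, lay at 9.74, 9.88 and 10.07 at baseline and at 9.70, 10.03 and 10.30 in failure. It was higher in 8 of 9 pigs, by 0.10 to 0.28, and 0.36 lower in pig 9. It was the 1 member to go 1 way in 8 or more of the 9 pigs, a pattern that 4.19% of all probe sets showed. The mean change of 0.11 (SE 0.07, 95% interval -0.04 to 0.25) did not pass (adjusted p = 0.875), and without pig 9 it was 0.16 (SE 0.05, adjusted p = 0.548). DLST, the E2 core of the same complex, lay at 10.04, 10.92 and 11.15 at baseline and at 9.55, 10.68 and 11.09 in failure. Its change was -0.12 (SE 0.09, adjusted p = 0.898), from -0.51 in pig 12 to 0.25 in pig 11. In pigs 5, 6, 8, 12 and 13 OGDH was higher and DLST lower than before ligation. In pig 9 the directions were the opposite, with OGDH lower and DLST 0.17 higher. The difference between these subunits was not tested.

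Succinate-CoA ligase pairs a common alpha subunit (SUCLG1) with a beta subunit that makes either ATP (SUCLA2) or GTP (SUCLG2). SUCLA2 lay at 9.84, 10.87 and 11.13 at baseline and at 9.36, 10.71 and 11.28 in failure. It ran from -0.52 in pig 12 to 0.39 in pig 9 (SD 0.338, n = 9), with a mean of -0.11 (SE 0.10, adjusted p = 0.924). SUCLG2 had the narrowest spread of any member, from -0.18 to 0.10 (SD 0.102, n = 9), and a mean of -0.05 (SE 0.05). SUCLG1 had a change of -0.00116 (95% interval -0.13 to 0.13). The final members, FH, which hydrates fumarate, and MDH2, which oxidises malate, had changes of -0.01 (-0.13 to 0.11) and -0.02 (-0.15 to 0.10).

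**Figure D2:**
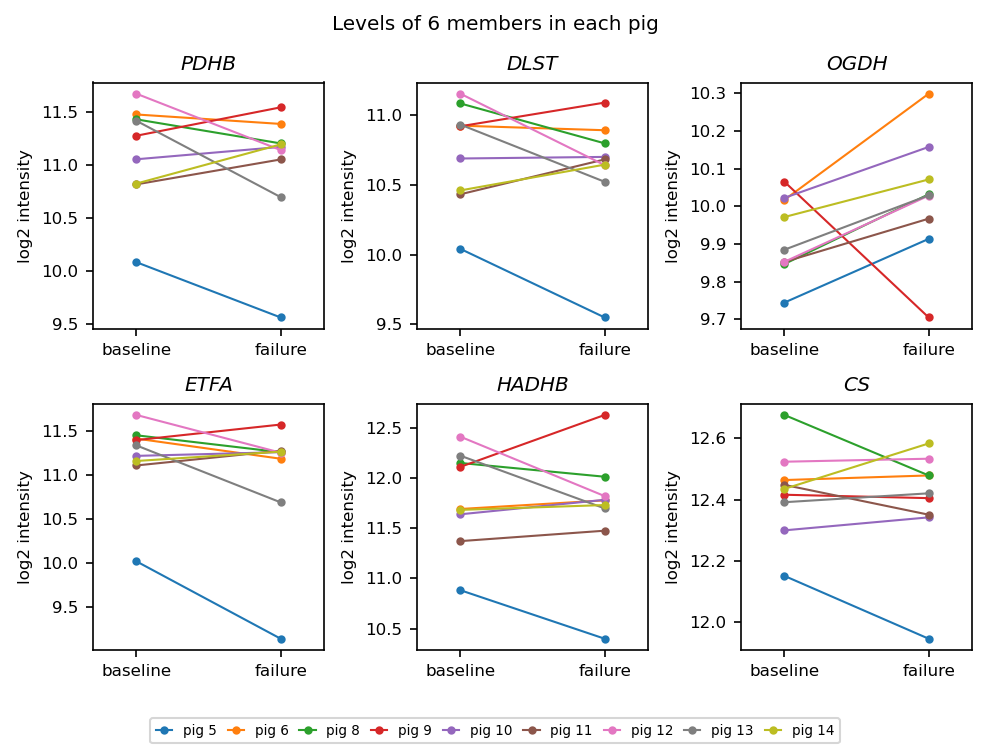
Levels of 6 members (y axis, log2 intensity, with a separate range for each gene) at baseline and in failure, 1 line per pig. Pig 5 is the lowest line for PDHB, DLST, ETFA, HADHB and CS, and for OGDH 8 lines go up and that of pig 9 goes down.

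Within each pig, both pathways had a mean change of the same sign. The mean change over the 19 genes of fatty acid oxidation was -0.05 ± 0.145 (SD, n = 9 pigs), and that over the 15 genes of the cycle was -0.05 ± 0.127. Both means were below 0 in pigs 5, 8, 12 and 13 and above 0 in pigs 6, 9, 10, 11 and 14, so their sign matched in 9 of 9 pigs. The lowest were those of pig 5 (-0.25 for fatty acid oxidation and -0.23 for the cycle), followed by pig 12 (-0.19 and -0.19) and pig 13 (-0.19 and -0.18). In pig 12, 28 of 34 members were lower in failure, whereas in pig 14, 30 of 34 were higher. The median change over all 6765 genes lay between -0.06 in pig 5 and 0.03 in pig 6. Fatty acid oxidation minus the cycle was 0.01 ± 0.0503 (SD, n = 9), smaller than the spread of either mean between pigs. It lay below 0 in 7 of 9 pigs (median -0.01) and above 0 in pigs 9 (0.11) and 6 (0.07). The sign of its mean turned without pig 9 (-0.00698), without pig 6 (-0.00123) and in the 3 pigs labelled with heart failure (-0.03). With all 9 pigs it also turned when only probe sets above the median were kept (-0.00610). The same held when each gene was given the mean of its probe sets (-0.00281) or its most variable one (-0.0156). Without pig 5 the means were -0.02 and -0.03 and their difference was 0.01. No p is given for these means, since the genes were listed with earlier results of these arrays known.

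Members differed in how closely they shared this pattern. Over the 9 changes the median Pearson r between members was 0.35 within fatty acid oxidation, 0.32 within the cycle and 0.35 between them, against 0.01 over all pairs of the 6765 genes. These values are descriptive, since the same 9 animals and the same arrays enter each pair. OGDH ran against the others (median r with the other members of -0.43), as did SUCLG2 (-0.28) and the dim gene PPARA (-0.24). The OGDH value leans on pig 9, in which OGDH was 0.36 lower while it was higher in the other 8. In that same pig 14 of 34 members had their highest change. The r without pig 9 is not given here.

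**Figure D3:**
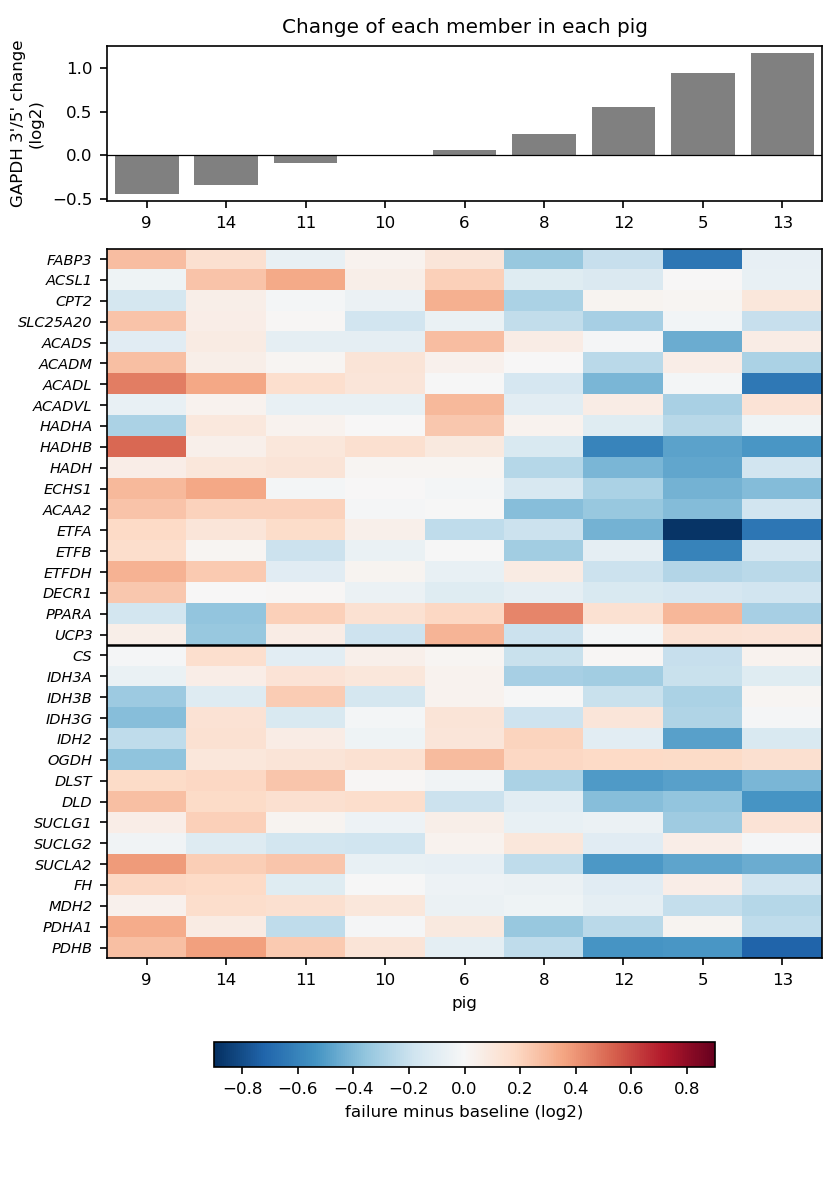
Change of each member in each pig (colour, failure minus baseline in log2 units, fatty acid oxidation above the black line and the cycle below it), with pigs ordered by the change in the GAPDH 3'/5' difference (bars, log2 units). Most members are red in pigs 9 and 14, at the left, and blue in pigs 12, 5 and 13, at the right, and OGDH is blue in pig 9 alone.

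A sign of RNA quality moved with these differences between pigs. The GAPDH 3'/5' difference changed by 0.24 ± 0.556 (SD, n = 9) from baseline to failure. It was most increased in pigs 13 (1.18), 5 (0.94) and 12 (0.55), where the members were lowest relative to baseline, and decreased in pigs 9 (-0.44), 14 (-0.33) and 11 (-0.09), where most members were higher. In limma, the slope of each gene on this difference was estimated beside the terms for pig and failure. It lay below 0 for 28 of 34 members, with a median of -0.19 log2 units of the gene per log2 unit of the difference, while the median of all 23935 probe sets was 0.01 and 47.8% of them lay below 0. The slope passed the threshold for 6 of 34 members, all negative, and for 0.769% of all probe sets (0.677% negative). The 6 were PDHB (-0.69, SE 0.10, adjusted p = 0.0165), ETFA (-0.64, SE 0.11, adjusted p = 0.0219), HADHB (-0.60, SE 0.12, adjusted p = 0.0408), SUCLA2 (-0.55, SE 0.11, adjusted p = 0.0451), DLD (-0.49, SE 0.10, adjusted p = 0.0487) and ECHS1 (-0.47, SE 0.10, adjusted p = 0.0487). At an unadjusted p under 0.05 it was negative for 13 of 34 members and 7.11% of all probe sets. Other members had slopes close to 0, among them CS (-0.07, SE 0.10), ACADVL (-0.02, SE 0.12), IDH3B (-0.00244, SE 0.12) and IDH3G (0.02, SE 0.13), and OGDH had one of 0.16 (SE 0.12).

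The count of 6 rested on all animals: it was 0 without pig 9, 13 or 14, 1 without pig 12, 2 without pig 6, 8, 10 or 11 and 3 without pig 5. The median slope over members stayed between -0.23 and -0.18 in these fits, and without pig 5 the slope lay below 0 for 25 of 34 members. With beta-actin control probe sets in place of GAPDH, 0 passed (0 over all probe sets), with 23 of 34 slopes below 0 and a median of -0.23. With the GAPDH difference in the model, 0 of 34 members and 0.0376% of all probe sets passed for failure, and the change lay below 0 for 19 of 34 members and between -0.09 and 0.11. The mean over fatty acid oxidation was then 0.01 and that over the cycle -0.00414. With the slope taken out of each member's changes, the median r between members was 0.15 within fatty acid oxidation, 0.07 within the cycle and 0.12 between them, lower than the 0.35, 0.32 and 0.35 before. Each slope was fitted to these same changes, so a fall among members with slopes of like sign follows from the fit. The step was not done for all pairs of genes, and the cause of the shared pattern was not tested.

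**Figure D4:**
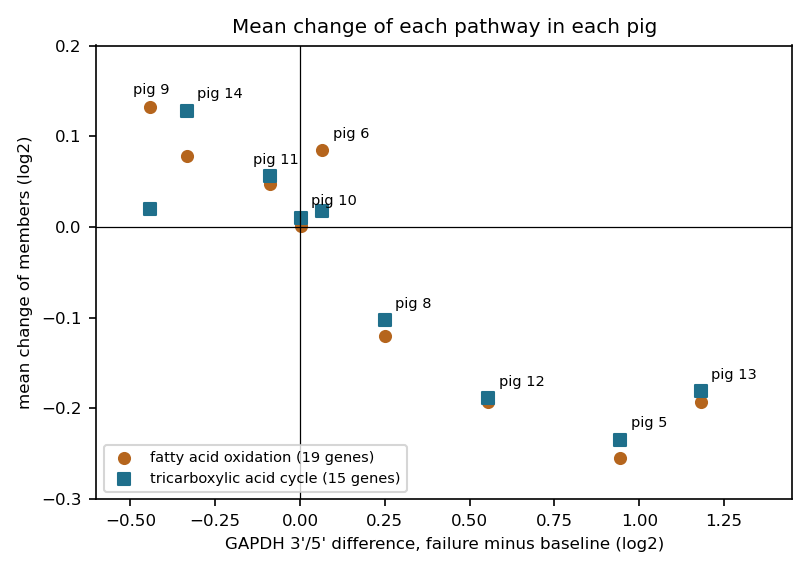
Mean change of the members in each pig (y axis, log2) against the change in the GAPDH 3'/5' difference in the same pig (x axis, log2), circles for the 19 genes of fatty acid oxidation and squares for the 15 of the cycle. Pigs 5, 12 and 13 sit at the lower right, between -0.25 and -0.18, and pigs 9, 11 and 14 at the upper left.

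Probe sets of 1 gene also differed in this slope. All 7 members with more than 1 probe set had a dimmer one with a wider spread between pigs. The slopes of the probe sets differed for ACADVL, HADHB, ETFDH, CS and IDH3A, without a test of the difference, and lay close together for UCP3 (0.13 and 0.04) and PPARA (0.06 and -0.00197). For IDH3A, the probe set used ran from -0.31 to 0.12 and had a slope of -0.16 (SE 0.11, adjusted p = 0.544). Its dimmer probe set (mean 6.27) ran from -1.80 in pig 13 to 0.94 in pig 9, with a slope of -1.46 (SE 0.22, adjusted p = 0.0165). The 3 probe sets of HADHB had slopes of -0.60, -0.21 and -1.11, the last with a range from -1.32 in pig 13 to 0.61 in pig 9. For ETFDH the slopes were -0.32 and -0.78, and for CS -0.07 and -0.42. The dimmer ACADVL probe set ran from -1.08 in pig 8 to 0.58 in pig 9, whereas the bright one stayed within 0.29 of 0. The mean changes of the probe sets of ACADVL, HADHB, ETFDH, CS and IDH3A lay between -0.24 and 0.02, and none passed the threshold for failure. PPARA had changes of 0.07 and -0.13 at its probe sets, both dim. The place of the probes along each transcript was not analysed here.

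**Figure D5:**
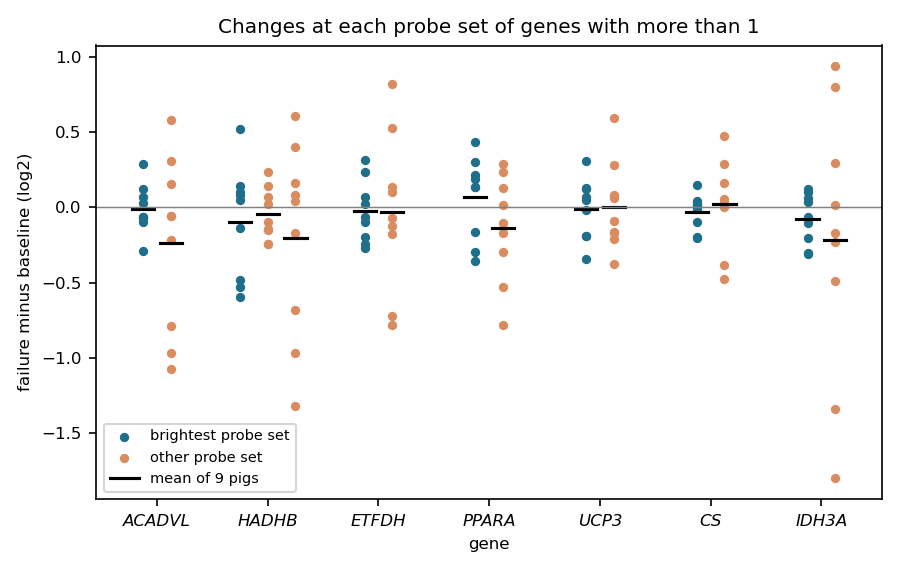
Failure minus baseline (y axis, log2) at each probe set of the 7 members that have more than 1, with 1 point per pig, a black bar for the mean, blue for the brightest probe set and orange for the others. The orange points of IDH3A span -1.80 to 0.94 while the blue ones span -0.31 to 0.12.

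The response was also compared between the pigs labelled with 120 min of ischemia and those labelled with heart failure, 6 against 3. In limma's interaction test 0 of 34 members passed, as did 0% of all probe sets (5.67% at an unadjusted p under 0.05, and 0 of 34 members). The smallest adjusted p of a member was 0.925, for ACADS, with a change of 0.04 ± 0.138 (SD, n = 6) in the former and -0.15 ± 0.267 (SD, n = 3) in the latter. The mean change was -0.04 and -0.06 for fatty acid oxidation, and -0.06 and -0.03 for the cycle.

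The rest of these pathways was read from lists of other genes. Of 26 other measured genes of fatty acid handling 0 passed, 10 had changes above 0 and 16 below (median -0.00392). The smallest p belonged to DECR2, the peroxisomal counterpart of DECR1, at 0.24 (SE 0.06, adjusted p = 0.341, 8 of 9 pigs higher), followed by UCP2, an uncoupling protein homologue (-0.16, SE 0.06, adjusted p = 0.753), and ACAD10, a relative of the acyl-CoA dehydrogenases (0.16, SE 0.09, adjusted p = 0.853). Of 24 other genes of pyruvate handling and the cycle 0 passed, 5 lay above 0 and 19 below (median -0.06). They were led by PDK4, the kinase that shuts off pyruvate dehydrogenase (0.22, SE 0.07, adjusted p = 0.571), DLAT, the E2 part of that enzyme (-0.17, SE 0.08, adjusted p = 0.830), and PDK3, a related kinase (-0.15, SE 0.08, adjusted p = 0.853). Of 12 measured regulators, PPARA included, 0 passed and 6 lay on either side of 0 (median 0.01), with SIRT3, a mitochondrial deacetylase, at -0.13 (SE 0.08, adjusted p = 0.868, lower in 8 of 9 pigs), RXRA, a partner of PPARA, at 0.10 (SE 0.07, adjusted p = 0.894) and HNF4A at 0.09 (SE 0.07, adjusted p = 0.908). UCP2 (mean 4.35), ACAD10 (4.27), RXRA (4.75) and HNF4A (5.39) lay below the median of all probe sets (5.63). Changes of these dim genes could be understated. The slope on the GAPDH difference passed for 1 gene of the fatty acid list and 2 of the pyruvate and cycle list, named after their values were seen: LPL, lipoprotein lipase (-1.36, SE 0.15, adjusted p = 0.00483), and SDHC and SDHD, the membrane anchors of succinate dehydrogenase (-1.03, SE 0.16, adjusted p = 0.0170, and -0.56, SE 0.10, adjusted p = 0.0319).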

How the data were processed

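Each deposited value is a log2 intensity of 1 probe set on an Affymetrix 3' IVT array, made from 250 ng of total RNA per the labels' protocols (Trizol, RNeasy columns, biotin-labelled cRNA). The submitters' processing notes name Partek with no version; how background was corrected and arrays normalized is not given in the sources used here. Array medians lay between 5.59 and 5.66, so a shift of most transcripts in 1 direction would not be visible. After 188 control probe sets were left out, 23935 were fitted with limma 3.58.1 in R 4.3.3 (pig as a block, eBayes, two-sided, Benjamini-Hochberg adjustment over all of them, threshold 0.05). Adjusted p-values, standard errors and 95% intervals come from this fit, which was tested on simulated data. The block follows the pig number in the labels: once group means were subtracted, both arrays of each animal had r of 0.449 to 0.750, and 9 of 9 baseline arrays matched their own pig best. The animals are separate, and their number limits the precision. The probe table names 1 gene for 10099 probe sets. Members, lists and tests were chosen with earlier results of these data known; the GAPDH slope and the fit without pigs 5 and 13 were added later. Per-sample values are given for the 4 members of each pathway with the smallest p and the 2 with the largest spread, and for others where they are described; of each other list the 3 genes with the smallest p are named. Mean changes of the pathways are descriptions with no test. The planned search of promoters was not run, since no sequence was used here. Alternatives tried were a fit without the block or with a random pig term, dim probe sets filtered out, other scalings, other probe sets per gene, other variance models, an RNA quality covariate, each label set and each pig left out.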

Additional observations from a re-analysis of the deposited data

Results flagged for a closer look

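Single animals stood far from the other 8 in 29 of the 105 sets of 9 values examined (about 1 in 20, or 5.25, arise by chance), and pig 5 accounted for 27 of them. All 27 were low levels of a member. At baseline these were ACADL (9.54, others 10.57 to 11.27), HADH (11.41, others 11.91 to 12.42), ETFA (10.02, others 11.10 to 11.68), ETFDH (9.68, others 10.34 to 10.93), IDH3A (8.86, others 9.75 to 10.24), DLD (10.55, others 11.26 to 11.99), MDH2 (11.89, others 12.43 to 12.83) and PDHA1 (8.60, others 9.41 to 9.90). In failure they were FABP3 (12.23, others 12.88 to 13.44), ACADS (7.13, others 7.73 to 8.19), ACADL (9.52, others 10.63 to 11.22), HADH (10.94, others 11.96 to 12.21), ECHS1 (10.25, others 11.24 to 11.97), ACAA2 (10.10, others 11.09 to 11.72), ETFA (9.14, others 10.69 to 11.57), ETFB (9.23, others 9.91 to 10.42), DECR1 (9.89, others 10.49 to 10.88), CS (11.95, others 12.34 to 12.58), IDH3A (8.65, others 9.78 to 10.17), IDH2 (11.95, others 12.69 to 13.14), DLST (9.55, others 10.52 to 11.09), DLD (10.20, others 11.29 to 11.77), SUCLG1 (11.13, others 11.67 to 11.95), SUCLA2 (9.36, others 10.42 to 11.28), MDH2 (11.67, others 12.56 to 12.79), PDHA1 (8.63, others 9.38 to 9.87) and PDHB (9.56, others 10.69 to 11.54). These groups are not independent, since they come from the same 2 arrays, whose GAPDH 3'/5' differences were the highest of their groups; the part of RNA quality in these levels was not tested.

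Pig 9 gave the other 2, both of them changes. OGDH was 0.36 lower in pig 9 (change of -0.36) and between 0.10 and 0.28 higher in the other 8. DECR1 was 0.24 higher in pig 9 and between -0.17 and 0.01 in the others. The GAPDH 3'/5' difference of pig 9 decreased more than that of any other animal (-0.44).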

How the results depend on the processing

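With 9 pigs, small changes could not be told from 0, and 32 of 34 intervals bound them only to between 20% lower and 25% higher. The count of 0 members past the threshold, for failure and for the interaction with label set, was the same in all alternatives run, the fit with no replicate block and each pig left out included. The mean changes of both pathways and their difference moved by less than 1 SD between pigs throughout, from -0.07 to 0.01 for fatty acid oxidation and from -0.08 to 0.01 for the cycle. The sign of the difference turned in some alternatives. For single members, 676 values under alternatives moved by less than 1 SD between pigs and 1 by more, ACADVL, at -0.24 with its most variable probe set. Leaving out 1 of 9 pigs cannot move a mean by 1 SD, and a filter on brightness leaves a member's own change as it was. A shift under 1 SD thus says little about stability in those fits. The count of 16 probe sets past the threshold over the whole array was 0 with no replicate block, 0 in an unmoderated paired test, 9 with only probe sets above the median, 10 with trend and robust variances, 9 with the GAPDH covariate beside the replicate block, 3 in label set 1 alone, 0 in label set 2 alone and 2 without pigs 5 and 13, chosen after the data were seen as those whose GAPDH difference increased most. Leaving out each pig gave 2 to 26. The count of 6 members with a slope past the threshold was 0 to 3 with each pig left out, 0 with beta-actin and 0 without pigs 5 and 13; fewer samples enter these fits except that with beta-actin, and the cause was not tested.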
